A study of Mus musculus with 6 samples.

Results

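The smooth muscle contractile genes are 33 genes whose proteins build or control the contractile machinery of smooth muscle. They were taken as a fixed list of gene symbols, and their 75 probe sets were all those that the platform annotation gives to exactly 1 of these symbols. All 33 genes were measured, among 18193 genes with a probe set of their own, and 25 of them reached the level needed for testing, among 10289 genes tested.

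RNA from mouse colon tumours was measured on 6 Affymetrix arrays, 1 sample per array. The control group was 3 samples from wild type mice and the transgenic group 3 samples from mice carrying human IL8, a chemokine that attracts neutrophils. Both groups are recorded as male CBA/C57BL/6 mice with colon cancer tumours, and no deletion or agent is named for either. The source name of the transgenic samples also carries the word control, so the groups rest on genotype and title. No label used here gives the age of the mice, the promoter of the transgene, how the tumours arose or whether a sample is 1 tumour or a pool. Since separate animals are not stated either, p-values speak of the spread among these samples alone, part of which may be technical. The question of the study is whether expression in colon tumours differs where human IL8 is present.

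In the gut, smooth muscle forms the outer muscle coat, the thin muscularis mucosae under the epithelium and the walls of vessels. Contraction starts when calcium activates myosin light chain kinase, which phosphorylates the regulatory light chain so that myosin can pull on actin filaments. A phosphatase reverses this step. Thin filaments are anchored at dense bodies and at membrane plaques, and desmin filaments tie these points together. Many of the genes are driven by serum response factor with its coactivator myocardin. Part of the list, such as Tpm1, Lpp and Flna, is also expressed by epithelial cells and fibroblasts, while Acta2 and Tagln also mark myofibroblasts and pericytes.

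Values are log2 expression values, on which a difference of 1 is a 2-fold change, and the arrays had medians of 3.31 to 3.36. Array pairs correlated across probe sets at 0.975 to 0.983 within the control group and at 0.925 to 0.954 within the transgenic group. The epithelial genes Epcam, Krt8 and Vil1 were at 11.50 or more on every array. Some arrays stood apart. Xist, the RNA of the inactive X chromosome, was at 2.64 or less on every control array and at 12.27 or more on every transgenic array, although the labels give all mice as male, so transgene and Xist cannot be told apart. Krtdap, a gene of stratified squamous epithelium, reached 12.31 on transgenic array 2, whereas its highest value elsewhere was 2.62. For Gapdh, the 3′ control probe set exceeded the 5′ one by 0.714 on transgenic array 1 and by 0.874 to 0.956 elsewhere, and for Actb by 1.46 and by 1.66 to 1.82. Differences of the tested genes without transgenic array 1 and without array 2 follow their values or stand together after them, and the part of tissue makeup or RNA quality in them was not tested.

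The smooth muscle genes varied more among the 3 transgenic samples than among the 3 control samples, with a larger spread in 23 of the 25 tested genes. Cnn1, Des, Synm, Synpo2, Actg2 and Myh11 were high on transgenic arrays 2 and 3 and at or below the control level on transgenic array 1. No member passed the test of transgenic against control. Limma, a linear model across all probe sets, called 0 of the 41 tested probe sets of members at an adjusted p under 0.05, where it called 0.057% of all probe sets tested. At an unadjusted p under 0.05 it gave 2 of the 41, Hspb8 and the second probe set of Pdlim7, both lower, which is close to the 5.5% of all probe sets. The smallest adjusted p of a member was 0.806.

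For the rest of the text each gene is read from its brightest probe set. On that reading 18 of the 25 tested genes were higher in the transgenic mean, where 46.2% of all genes tested were, and the median difference was 0.13 against -0.025 over all genes. Over all 33 genes, 26 were higher and the median was 0.43, and this count takes in the 8 untested genes, which reached 4 on fewer than 3 arrays. Leaving out transgenic array 2 moved the median of the 25 genes to -0.013, and leaving out array 1 moved it to 0.56. At an unadjusted p under 0.05, 0 tested genes were higher and 1 was lower, against 2.2% and 3.63% of all genes. The groups did not overlap for 1 gene, Csrp1, which was higher, and for 0 lower genes, against 4.77% and 6.75% of all genes. The shares past the unadjusted threshold or without overlap were thus below or close to the background, while the share with a higher mean was above it. In tumour pieces, fewer cells of a type and less RNA per cell cannot be told apart.

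**Figure D1:**
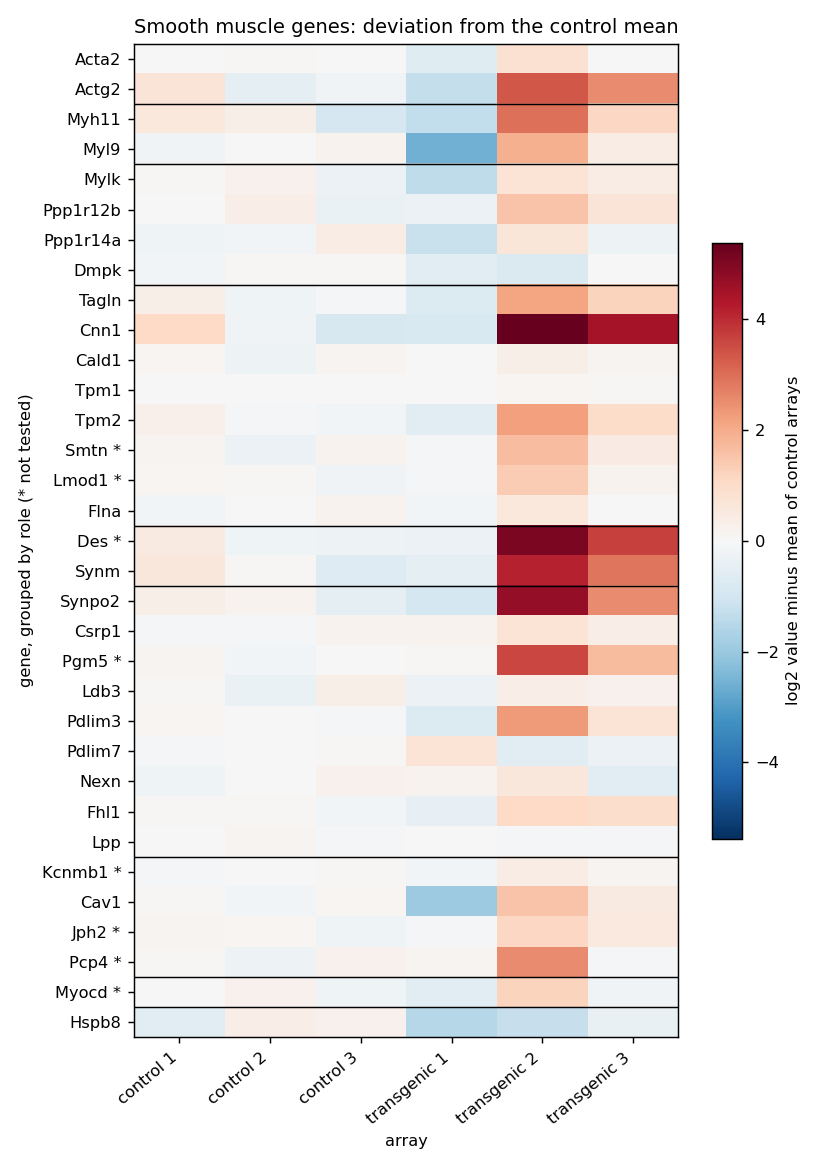
Deviation of each of the 33 genes from its mean over the control arrays (colour, log2), with arrays in columns and genes in rows grouped by role. Stars mark the 8 genes that were not tested. The column of transgenic array 2 is mostly red, and that of array 3 is paler red in the same genes. That of array 1 holds 18 genes that lie below every control array, in blue. For Des, Kcnmb1 and Myocd among them, array 1 and every control array were under 4.

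The array pattern was described after the values had been seen, so its counts carry no test. Transgenic array 2 had the highest of the 6 values in 21 of the 25 tested genes, where it did so for 25.5% of all genes. Transgenic arrays 2 and 3 both lay above every control array in 15 of the 25, against 12.1% of all genes. Transgenic array 1 lay below every control array in 15 of the 25, against 37.2%, and was the lowest of the 6 arrays in 14, against 26.9%. Both patterns, arrays 2 and 3 above every control and array 1 below every control, were seen together in 10 of the 25, against 4.29% of all genes. These were Actg2, Myh11, Myl9, Mylk, Tagln, Tpm2, Synpo2, Pdlim3, Fhl1 and Cav1. For Synpo2, transgenic array 1 (3.09) and the lowest control (3.56) were both under 4. Set against the control mean of each gene, the 25 genes had a median of -0.63 on the first transgenic array, 0.83 on the second and 0.40 on the third, while the control arrays lay between -0.028 and 0.049.

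The spread within the groups was unequal. The range over the transgenic arrays was above 2 on the log2 scale in 11 of the 25 genes, against 7.13% of all genes. Over the control arrays it was above 2 in 0 of the 25, against 1.43%. The median standard deviation (SD) of the 25 genes was 0.23 in control and 0.92 in transgenic tumours, and over all genes it was 0.19 and 0.30. A larger SD in the transgenic group was seen in 23 of the 25 genes and in 70.4% of all genes.

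**Figure D2:**
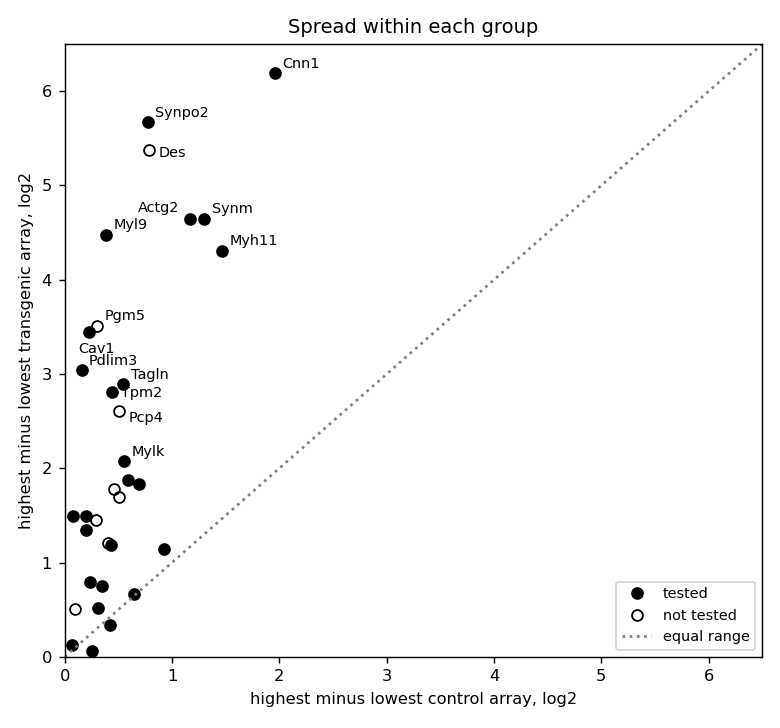
Highest minus lowest array within the control group (x axis, log2) and within the transgenic group (y axis, log2) for each of the 33 genes, with filled points for tested and open points for untested genes. All but 2 genes, Cald1 and Lpp, lie above the dotted line of equal range, and the named genes have a transgenic range above 2.

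The promoters of the members were also searched for the motif of serum response factor. The sequences are those of RefSeq on build GRCm38.p6, which listed 36 start sites for 28 of the 33 genes. Actg2, Myh11, Myocd, Nexn and Tagln had no start listed and were not searched. The 250 bases before each start were searched on both strands for the CArG box, a motif of 10 bases that serum response factor binds, and for the TATA box TATAAA. The CArG box was found in 3 of the 28 genes, Myl9, Fhl1 and Ldb3, a share of 10.7%, where 1.62% of all 27025 genes listed had it. The TATA box was found in 4 of the 28 genes, Cald1, Cav1, Fhl1 and Synpo2, or 14.3%, the same share as the 14.3% of all genes, and 0 of the CArG matches overlapped it. Of the genes with a CArG box, Myl9 and Fhl1 were among those with both array patterns above, and Ldb3 was not. A match is a stretch of letters and not a measured binding site, and its part in the array pattern was not tested.

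The 180 bases before the start are shown for the 3 genes with a CArG box, in capitals, and for Cnn1 and Des, the members with the largest differences between groups, which had no match in this window. They are written 5′ to 3′ on the strand of the gene. Myl9 lies at chr2:156775284-156775463 (plus strand), Fhl1 at chrX:56779503-56779682 (plus), Ldb3 at chr14:34588682-34588861 (minus), Cnn1 at chr9:22099073-22099252 (plus) and Des at chr1:75360112-75360291 (plus). The box begins 161 bases before the start in Myl9, 102 in Fhl1 and 35 in Ldb3.
Myl9: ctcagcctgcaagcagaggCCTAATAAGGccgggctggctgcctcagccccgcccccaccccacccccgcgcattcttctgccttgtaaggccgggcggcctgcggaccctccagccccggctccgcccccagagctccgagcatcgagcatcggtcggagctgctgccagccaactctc
Fhl1: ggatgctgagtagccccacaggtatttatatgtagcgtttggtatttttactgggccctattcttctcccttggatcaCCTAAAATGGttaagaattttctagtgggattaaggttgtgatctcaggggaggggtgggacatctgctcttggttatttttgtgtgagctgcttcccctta
Ldb3: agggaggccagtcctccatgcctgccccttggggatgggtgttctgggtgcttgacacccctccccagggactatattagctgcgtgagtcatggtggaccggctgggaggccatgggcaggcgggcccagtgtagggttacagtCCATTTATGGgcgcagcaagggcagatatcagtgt
Cnn1: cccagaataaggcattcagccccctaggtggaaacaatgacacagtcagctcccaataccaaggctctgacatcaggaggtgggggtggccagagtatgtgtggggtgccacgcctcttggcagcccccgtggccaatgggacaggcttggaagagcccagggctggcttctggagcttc
Des: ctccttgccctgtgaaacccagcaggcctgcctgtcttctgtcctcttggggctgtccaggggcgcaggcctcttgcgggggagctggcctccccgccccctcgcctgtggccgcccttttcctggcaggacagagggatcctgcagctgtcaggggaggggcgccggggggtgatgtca

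Smooth muscle has actins of its own. Acta2 encodes the alpha actin of vascular smooth muscle and of myofibroblasts, and Actg2 the gamma actin of gut smooth muscle. Acta2 was at 11.30, 11.37 and 11.29 on control arrays 1 to 3 and at 10.66, 12.15 and 11.34 on transgenic arrays 1 to 3. The control arrays were almost equal, and the transgenic arrays lay below, above and within their range. The group means were 11.32 ± 0.043 and 11.38 ± 0.75 (SD, n = 3), a difference of 0.067 ± 0.37 (standard error, SE, of the fit, limma adjusted p 0.97). The suffix of its probe set marks probes shared with other transcripts, so that other actins may add to it.

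Actg2 was at 8.03, 6.86 and 7.18 in control tumours and at 6.06, 10.70 and 9.89 in transgenic tumours. Arrays 2 and 3 of the transgenic group were above every control, and array 1 was below every control. Transgenic array 2 was 25.0-fold and array 3 14.2-fold above array 1. The group means were 7.36 ± 0.60 and 8.88 ± 2.48, a difference of 1.52 ± 1.18 (adjusted p 0.81), which was 2.94 without transgenic array 1 and 0.61 without array 2.

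**Figure D3:**
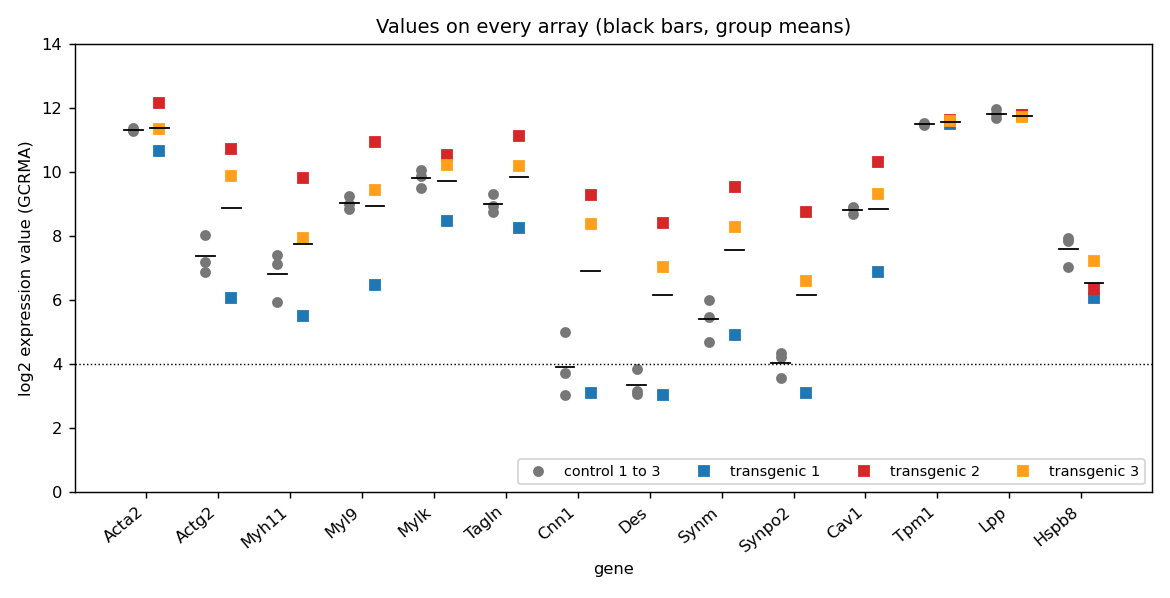
Log2 expression values of 14 of the genes (x axis) on every array, with grey circles for the 3 control arrays, coloured squares for the 3 transgenic arrays and black bars for group means. The dotted line marks the level of 4 used in the filter. From Actg2 to Cav1 the blue square of transgenic array 1 is the lowest transgenic value and the red square of array 2 the highest, while the values of Tpm1 and Lpp lie close together.

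The motor itself showed the same order of arrays. Myh11, the smooth muscle myosin heavy chain, was at 7.41, 7.12 and 5.94 in control and at 5.49, 9.80 and 7.92 in transgenic tumours. Means were 6.82 ± 0.78 and 7.73 ± 2.16, and the difference of 0.91 ± 1.06 did not pass (adjusted p 0.86). It turned to -0.12 without transgenic array 2 and was 2.04 without array 1.

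Myl9, the regulatory light chain that the kinase phosphorylates, had the CArG box shown above. Its values were 8.85, 9.00 and 9.23 in control and 6.45, 10.93 and 9.43 in transgenic tumours. The control values were close together, while transgenic array 2 was 22.3-fold above array 1. With means of 9.03 ± 0.19 and 8.93 ± 2.28 the groups differed by -0.093 ± 1.06 (adjusted p 0.98), and by 1.15 without transgenic array 1 and -1.09 without array 2.

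Among the genes for the control of myosin phosphorylation, 1 was higher and 3 were lower in the transgenic mean, and none passed. Mylk, the light chain kinase, was at 9.87, 10.05 and 9.50 in control and at 8.45, 10.53 and 10.21 in transgenic tumours. Only transgenic array 1 lay under the controls, and the difference was -0.074 ± 0.55 (adjusted p 0.98). Its second tested probe set differed by -0.027. Ppp1r12b, a targeting subunit of the myosin phosphatase, was at 4.80, 5.18 and 4.48 in control and at 4.51, 6.35 and 5.49 in transgenic tumours, a difference of 0.63 ± 0.47. Dmpk, the myotonic dystrophy protein kinase, was at 6.06, 6.30 and 6.29 in control and at 5.64, 5.45 and 6.24 in transgenic tumours, a difference of -0.44 ± 0.24. In Dmpk the high array of the other genes, transgenic array 2, was the lowest. Ppp1r14a, the phosphatase inhibitor also named CPI-17, differed by -0.27 ± 0.47, with 4.03 on transgenic array 1 and 5.90 on array 2.

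Proteins that bind actin and tune contraction were all higher in the transgenic mean, 8 of 8, but the sizes ran from 0.054 to 3.01 and none of the 6 tested passed. Cnn1, the calponin that marks differentiated smooth muscle, had the largest difference of the 33 genes. It was at 4.99, 3.70 and 3.03 in control and at 3.09, 9.28 and 8.36 in transgenic tumours. Transgenic arrays 2 and 3 were far above every control, and array 1 was among the low controls. The means were 3.91 ± 0.99 and 6.91 ± 3.34, a difference of 3.01 ± 1.61 (adjusted p 0.81). With values under 4 set to 4, as the background level, transgenic array 2 was at least 38.9-fold and array 3 at least 20.6-fold above array 1.

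Tagln (transgelin, SM22) and Tpm2 (beta tropomyosin) followed the same order with smaller steps. Tagln was at 9.30, 8.75 and 8.92 in control and at 8.24, 11.13 and 10.19 in transgenic tumours, a difference of 0.86 ± 0.70. Tpm2 was at 9.84, 9.45 and 9.40 in control and at 8.93, 11.74 and 10.56 in transgenic tumours, a difference of 0.85 ± 0.67, and its second tested probe set gave 1.02. In both genes transgenic array 1 was below every control and arrays 2 and 3 were above.

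The broadly expressed members of this group hardly moved. Tpm1, the alpha tropomyosin gene, was at 11.51, 11.47 and 11.53 in control and at 11.49, 11.61 and 11.58 in transgenic tumours. All 6 arrays lay close together, and the difference was 0.054 ± 0.13 (adjusted p 0.93). Cald1, the actin-binding caldesmon, differed by 0.15 ± 0.18, and its 4 tested probe sets by 0.037 to 0.26. Flna, the actin crosslinker filamin A, differed by 0.13 ± 0.24. Smtn (smoothelin) and Lmod1 (leiomodin) were not tested, as they reached 4 on fewer than 3 arrays. Smtn was at 5.40 and Lmod1 at 4.22 on transgenic array 2, the highest array for both.

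Intermediate filament genes were the most uneven. Des, which encodes desmin, was at 3.85, 3.14 and 3.06 in control tumours, under the level of 4, and at 3.03, 8.41 and 7.04 in transgenic tumours. Transgenic arrays 2 and 3 were thus well above background and array 1 was not. With only 2 arrays at 4 or more it was not tested. Against array 1 set to 4, array 2 was at least 21.2-fold and array 3 at least 8.22-fold higher. Without the filter its unadjusted p was 0.077.

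Synm, the desmin partner synemin, was at 6.00, 5.47 and 4.69 in control and at 4.89, 9.53 and 8.27 in transgenic tumours. Here too transgenic arrays 2 and 3 exceeded every control, and array 1 lay inside the control range. The means were 5.39 ± 0.65 and 7.57 ± 2.40, a difference of 2.18 ± 1.15 (adjusted p 0.81), which was 3.52 without transgenic array 1 and 1.20 without array 2. A second probe set of Synm, not tested, was at 6.83 on transgenic array 2, at 4.65 on array 3 and at 3.54 or less on the others.

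Of the 9 genes of dense bodies and adhesion plaques, 7 were higher and 2 lower in the transgenic mean, and 0 of the 8 tested passed. Synpo2, the actin-bundling synaptopodin 2 or myopodin, was at 4.33, 4.21 and 3.56 in control and at 3.09, 8.76 and 6.59 in transgenic tumours. Transgenic arrays 2 and 3 were above every control, as for Cnn1, and array 1 was below every control. Its means were 4.03 ± 0.42 and 6.15 ± 2.86, a difference of 2.11 ± 1.34 (adjusted p 0.81), which was 3.64 without transgenic array 1. Pgm5, the adhesion plaque protein aciculin, was not tested and was at 6.33 and 4.42 on transgenic arrays 2 and 3 and at 2.88 or less elsewhere.

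Csrp1, a LIM protein of the actin cytoskeleton, was the gene whose groups did not overlap. It was at 8.69, 8.72 and 9.00 in control and at 9.01, 9.53 and 9.17 in transgenic tumours, and the nearest arrays of the groups, control 3 and transgenic 1, were almost equal. The difference was 0.43 ± 0.19 (adjusted p 0.81), and its second probe set gave 0.38. The separation was lost when each array was centred on its median and when the gene's probe sets were averaged.

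Lpp, a LIM protein of focal adhesions expressed by many cell types, had the smallest range of the 33 genes over the transgenic arrays. It was at 11.81, 11.96 and 11.70 in control and at 11.79, 11.77 and 11.73 in transgenic tumours, a difference of -0.061 ± 0.14, and its 7 tested probe sets differed by -0.10 to 0.10. Pdlim3, a protein of the alpha-actinin anchor, was at 4.88, 4.74 and 4.72 in control and at 4.02, 7.07 and 5.50 in transgenic tumours, a difference of 0.75 ± 0.71. Fhl1, the LIM protein with the CArG box above, was at 10.47, 10.46 and 10.27 in control and at 9.96, 11.45 and 11.36 in transgenic tumours, a difference of 0.52 ± 0.41. The remaining 3 tested genes were Ldb3, which carries the third CArG box and differed by 0.087 ± 0.25, Nexn (0.061 ± 0.32) and Pdlim7 (-0.078 ± 0.35). In Pdlim7 the order was turned, with 9.87 on transgenic array 1 and 8.53 on array 2.

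At the membrane, Cav1, the main caveolin of smooth muscle, endothelium and fibroblasts, was at 8.86, 8.67 and 8.90 in control and at 6.87, 10.32 and 9.29 in transgenic tumours. The transgenic arrays surrounded the narrow control range, 10.9-fold from array 1 to array 2, while the means of 8.81 ± 0.12 and 8.83 ± 1.77 were nearly equal (difference 0.023 ± 0.83, adjusted p 0.996). Jph2, a junctophilin that holds calcium stores to the membrane, and Pcp4, a calmodulin regulator, were not tested and reached 4 on transgenic array 2 only, at 4.13 and 5.46. Kcnmb1, the beta subunit of the calcium-activated potassium channel, stayed under 4 on every array and its highest value was 3.01.

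Myocd, which encodes myocardin, was near background. It was at 3.12, 3.36 and 2.90 in control and at 2.54, 4.31 and 2.93 in transgenic tumours and was not tested, since transgenic array 2 alone passed 4. Hspb8, a small heat shock protein that serves the clearance of damaged filament proteins, went the other way. It was at 7.01, 7.94 and 7.84 in control and at 6.06, 6.34 and 7.20 in transgenic tumours. Transgenic arrays 1 and 2 lay below every control, and array 3 lay just above the lowest control. The difference was -1.07 ± 0.38, with the smallest unadjusted p of the 25 genes (0.030) and an adjusted p of 0.81.

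**Figure D4:**
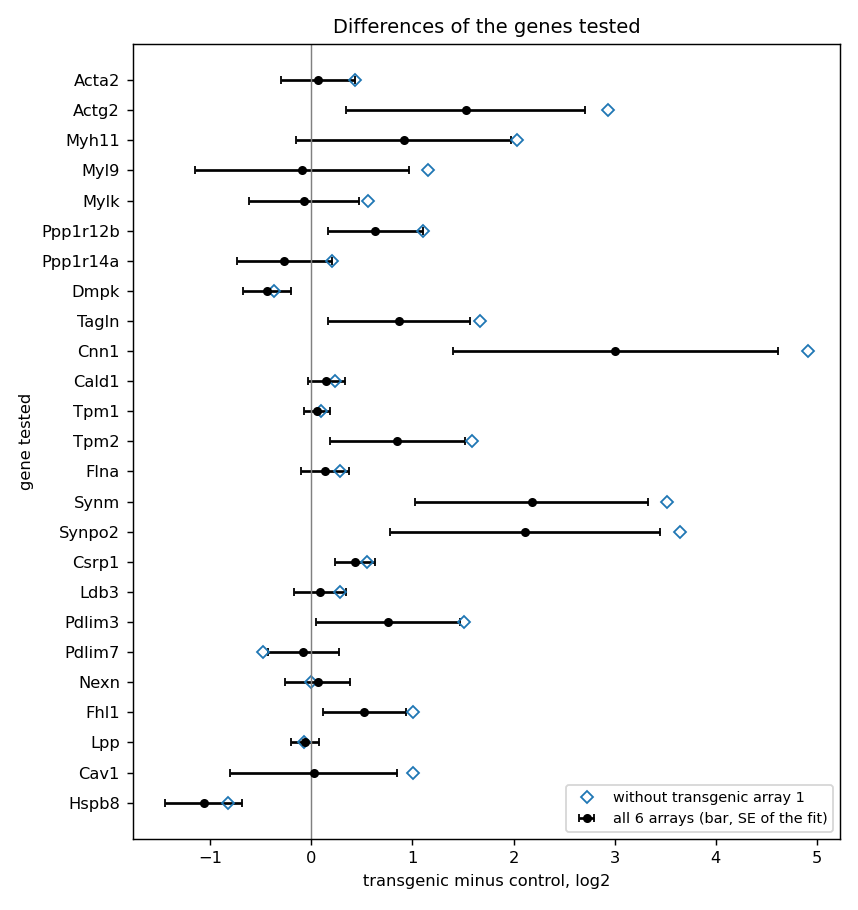
Transgenic minus control difference (x axis, log2) of the 25 tested genes (y axis), with black points for all 6 arrays, bars for the SE of the fit and blue diamonds for the fit without transgenic array 1. The diamonds lie to the right of the points for most genes, and those of Cnn1, Synpo2, Synm and Actg2 lie at 2.94 or more.

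Leaving out transgenic array 1 changed the picture most, and this fit rests on 2 transgenic samples. It gave 13 of the 25 genes higher at an unadjusted p under 0.05 and 1, Pdlim7, lower, against 3.76% and 3.78% of all genes in the same fit. The 13 were Actg2, Myh11, Myl9, Ppp1r12b, Tagln, Cnn1, Tpm2, Synm, Synpo2, Csrp1, Pdlim3, Fhl1 and Cav1. No gene passed the adjustment in this fit either, and the smallest adjusted p was 0.548, for Cnn1, with a difference of 4.92 ± 0.63. Without transgenic array 2, the array with the squamous gene Krtdap at 12.31, 0 of the 25 reached an unadjusted p under 0.05. The share of all genes was not counted in the fit without array 2, so this 0 has no background beside it. Cnn1 then differed by 1.82, Synm by 1.20, Synpo2 by 0.81 and Actg2 by 0.61.

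For many of the remaining tested genes the size or the sign depended on these arrays. Tagln differed by 1.67 without transgenic array 1 and by 0.22 without array 2, Tpm2 by 1.59 and 0.19, Ppp1r12b by 1.10 and 0.18, and Fhl1 by 1.01 and 0.26. Csrp1 differed by 0.55 and 0.29 in the same order of fits, Cald1 by 0.23 and 0.062, and Tpm1 by 0.091 and 0.030. These genes stayed higher in both fits. The sign turned between the fits for Cav1 (1.00 and -0.72), Pdlim3 (1.51 and -0.013), Mylk (0.56 and -0.47), Acta2 (0.43 and -0.32), Flna (0.29 and -0.091), Ldb3 (0.29 and -0.046), Ppp1r14a (0.20 and -0.73) and Pdlim7 (-0.48 and 0.20). Hspb8 (-0.83 and -0.97), Dmpk (-0.37 and -0.27), Lpp (-0.074 and -0.067) and Nexn (-0.0028 and -0.20) were lower in both.

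Further genes of smooth muscle varied less as a list. Of 38 such genes fixed as a list, 33 had a probe set and 21 were tested. Of these, 10 were higher and 11 lower, 0 passed, and the median difference was -0.020. Their median deviation was -0.011, 0.11 and 0.027 on transgenic arrays 1 to 3. Srf, the serum response factor itself, differed by 0.36 ± 0.28, the sarcoglycan gene Sgcb by 0.59 ± 0.44 and vinculin (Vcl) by 0.23 ± 0.16. Srf was at 8.63, 7.77 and 7.64 on transgenic arrays 1 to 3, against 7.61 to 7.69 in control tumours. It was thus highest on transgenic array 1, where most contractile genes were lowest. On the lower side were Foxf1, a transcription factor of gut mesenchyme (-0.83 ± 0.20, unadjusted p 0.0055, adjusted p 0.81), Ilk (-0.40 ± 0.21) and Filip1l (-0.22 ± 0.24). Of its 33 measured genes, 10 stayed under 4 on every array. Single genes did show the order of the contractile genes: Kcnma1, the pore subunit of the calcium-activated potassium channel, named here after its values were seen, was at 4.78, 4.12 and 4.71 in control and at 3.43, 6.58 and 5.52 in transgenic tumours. Palld, also named after the fact, was at 9.31, 10.11 and 9.84 on transgenic arrays 1 to 3, against 9.42 to 9.68. Sspn and Cspg4, not tested, reached 4 on transgenic array 2 only, at 5.24 and 4.31. Srf, Gata6, Actn1, Vcl, Zyx, Cnn2 and Tpm4, put together after their values were seen, were instead highest of all arrays on transgenic array 1. The lead over control array 2 was slight for Gata6 (10.09 against 10.07) and Cnn2 (8.86 against 8.85). The share of all genes highest on transgenic array 1 was not counted.

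Markers of other cells gave the following values beside these results, and their part in them was not tested. Among fibroblast genes, 7 of 8 tested were lower, and the median deviation was -1.31, 0.054 and -0.44 on transgenic arrays 1 to 3. Their summed level was 14.26 to 14.50 on control and 13.27 to 14.25 on transgenic arrays (log2 of the sum). Col3a1 differed by -0.81, Pdgfra by -1.24 and Dcn by -0.33. Named after their values were seen, Col1a1, Col1a2, Col3a1, Lum, Postn and Thy1 shared the order of transgenic arrays of the contractile genes. Array 1 was the lowest of these arrays and array 2 the highest. Each was below every control on array 1, but only Col1a1, Lum and Postn were above every control on array 2. Dcn and Pdgfra, the remaining tested genes, had other orders. Col1a1, a collagen chain, was at 6.60, 9.55 and 8.05 on transgenic arrays 1 to 3, against 8.33 to 8.35 in control tumours. Lum, a matrix proteoglycan, was at 3.28, 8.00 and 5.71, against 6.18 to 6.83. Postn (periostin) was at 9.88, 11.21 and 10.87, against 10.46 to 10.88, and was the 1 tested gene with a higher mean. As a median, array 1 was thus the lowest transgenic array for fibroblast as for contractile genes, whereas the median on array 3 was below the controls for fibroblast and above them for contractile genes.

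Pericyte genes, which share Acta2 and Tagln with smooth muscle, had 4 of 6 tested higher and summed levels of 11.52 to 11.81 and 11.31 to 11.68, with Rgs5 at -0.29 and Pdgfrb at -0.40. Endothelial genes had 1 of 5 higher and sums of 8.44 to 8.77 and 8.36 to 8.68, with Vwf at -0.092, Emcn at 0.51 and Cdh5 at -0.31. For colon epithelium, 9 of 10 were higher and sums were 15.95 to 16.23 and 16.18 to 16.28, with Epcam at 0.021, Cdx1 at 0.92 and Cdh1 at 0.24. In these 3 lists the sums of the groups overlapped.

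Cells that accompany the gut muscle coat were also read. Of the interstitial cells of Cajal, the pacemaker cells of the gut, 3 of 3 tested genes were higher, with sums of 10.84 to 11.58 in control and 11.16 to 12.61 in transgenic tumours. Thbs4, a matrix protein, differed by 2.03, with 11.21 and 9.97 on transgenic arrays 2 and 3 and 7.18 on array 1, against 5.68 to 9.49 in control tumours. Ano1, a chloride channel, differed by 0.41. Of 8 enteric neuron genes, 4 stayed under 4 on every array, and sums were 7.15 to 8.50 and 8.18 to 9.36. Ret, the 1 that was tested, differed by 0.34 and was highest on transgenic array 1 (8.77), with 6.81 on array 2. Vip, a neuropeptide of enteric neurons named here after its values were seen, was at 8.68 and 6.35 on transgenic arrays 2 and 3 and at 3.49 or less on the others. Stmn2, another neuronal gene named after its values were seen, was instead at 6.64 and 6.28 on transgenic arrays 1 and 2, at 3.62 on array 3 and at 3.45 or less in control tumours. The neuron genes thus did not share 1 order of arrays. All 4 measured enteric glia genes, Sox10 among them, stayed under 4, with sums of 4.20 to 4.31 and 4.24 to 4.49.

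Striated muscle shares Des, Ldb3 and Jph2 with smooth muscle, and most of its defining markers were near background. Of 9 skeletal muscle genes, 7 stayed under 4 on every array, Ckm and Acta1 among them, and sums were 6.59 to 6.67 and 6.51 to 6.83, with Mylpf at -0.22 and Tnni2 at 0.44. Of 5 cardiac genes, 4 stayed under 4, and sums were 8.42 to 9.49 and 8.27 to 9.42, with Tnnt2 at 0.18. Mesothelial genes had 3 of 4 under 4, sums of 5.43 to 5.84 and 5.51 to 5.88, and Msln at 0.16. Adipocyte genes had 2 of 3 under 4, Adipoq among them, sums of 8.48 to 9.86 and 9.38 to 10.04, and Fabp4 at 0.45. Squamous epithelium genes, of which only Krt14 was tested (1.38), had sums of 6.56 to 8.203 in control and 6.36 to 14.00 in transgenic tumours. All 6 were highest on transgenic array 2, the array on which most contractile genes were highest.

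**Figure D5:**
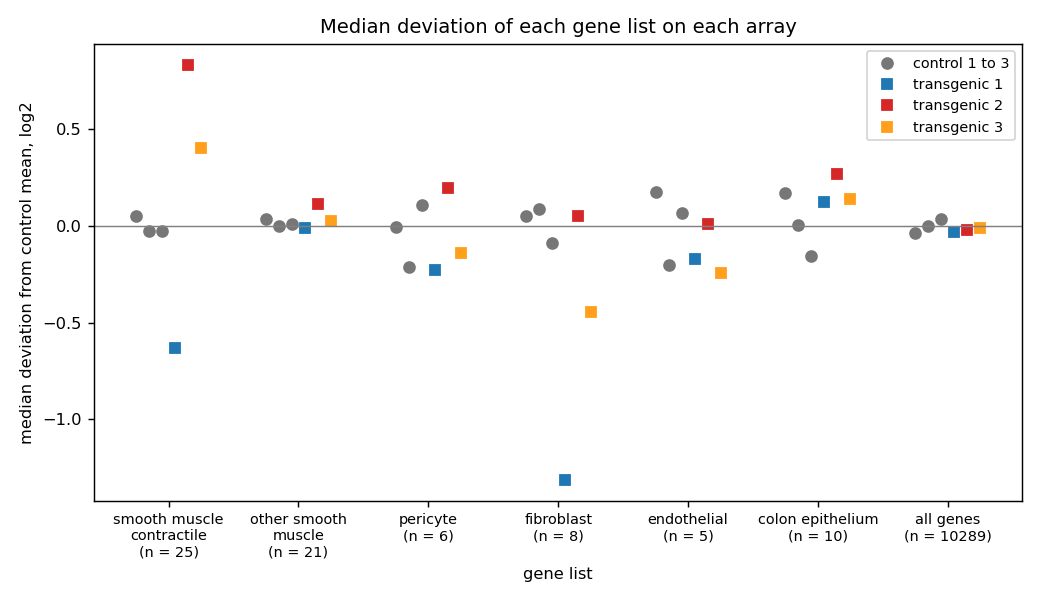
Median deviation from the control mean (y axis, log2) of the tested genes of 7 lists (x axis, number of genes in brackets) on each array, with grey circles for control arrays and coloured squares for transgenic arrays. The smooth muscle contractile genes reach from -0.63 on transgenic array 1 to 0.83 on array 2. The fibroblast genes reach down to -1.31 on array 1, and all genes lie close to 0 on every array.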

How the data were processed

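The deposited values are log2 expression values per probe set, made by the authors with GCRMA, per the submitters' processing notes, and were used as deposited. GCRMA corrects background, normalizes and summarises probes. No source used here gives its version or a genome build. Groups and replicate numbers came from the sample titles. Genes were named from the platform annotation, and probe sets with several symbols (932) were left out of gene counts. A probe set was tested where it reached 4 on at least 3 of the 6 arrays, which kept 19310 of 45101, with the 64 control probe sets left out. Transgenic minus control was fitted with limma 3.58.1 (lmFit and eBayes, two-sided) in R 4.3.3, and p-values were adjusted by Benjamini-Hochberg over all probe sets tested. The procedure was tested on simulated data. With 3 arrays a group, precision is limited by their number. Per gene, the probe set with the highest mean was read. Every member is named, in full for the brightest and the 2 of smallest p of each role group. Of the other lists, the brightest and the 2 of smallest p are named (3 per direction for other smooth muscle genes). Members and lists were chosen with earlier results of these data known, so no test over a list was made. Alternatives were other filters, normalizations, variance priors, array weights, a replicate block, a floor of 4, a threshold of 0.1, other probe set summaries and leaving out each array. Values set to 4 give lower bounds, written "at least".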

Additional observations from a re-analysis of the deposited data

How the results depend on the processing

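Across all alternatives 0 member probe sets passed the adjustment, and the smallest adjusted p of a gene was 0.305. The count of genes at an unadjusted p under 0.05, 1 of 25, was 2 of 33 with no filter (Hspb8 and Csrp1). It was 7 with array quality weights, all higher, and between 0 and 14 when single arrays were left out. It was 0 without control array 2, control array 3 or transgenic array 2. It was 2 when transgenic array 3 was dropped and 14 when transgenic array 1 was. In the last of these fits 3.76% of all genes were higher and 3.78% lower at this threshold. For the other alternatives the share of all genes was not counted, so those counts have no background beside them. The count of genes whose groups do not overlap, 1, was 0 with median centring and 0 with the mean over kept probe sets. It was between 1 and 16 when single arrays were left out. It was 16 without transgenic array 1, 3 without control array 1 or transgenic array 3, and 2 without control array 3 or transgenic array 2. Groups separate more easily where 2 arrays are set against 3. The share of all genes was not counted in these fits, so their counts cannot be set against the main count of 1. The median difference of 0.13 was 0.43 with no filter, which adds the 8 untested genes, 0.077 when 6 rather than 4 was asked on 3 arrays, and 0.30 with array quality weights, which gave transgenic arrays 1 and 2 the lowest weights, 0.356 and 0.477. With single arrays left out it lay between -0.013 (without transgenic array 2) and 0.56 (without transgenic array 1), and it was 0.23 when control array 3 and 0.21 when transgenic array 3 was dropped. When single arrays were left out, the median deviation ran from -0.71 to -0.49 on transgenic array 1. It ran from 0.82 to 0.86 on array 2 and from 0.32 to 0.47 on array 3. With no filter it was -0.44, 1.185 and 0.40 on transgenic arrays 1 to 3. Where 6 rather than 4 was asked, it was -0.60, 0.72 and 0.30. With array quality weights the difference turned to 0.30 for Myl9, 0.13 for Mylk and -0.24 for Nexn. It was -0.10 for Ldb3 with the mean and with the median over kept probe sets, and 0.021 for Lpp with the median. With 1 array left out the sign turned for 12 genes, with these ranges: Acta2 -0.32 to 0.43, Cav1 -0.72 to 1.00, Flna -0.091 to 0.29, Ldb3 -0.086 to 0.29, Lpp -0.12 to 0.0051, Myh11 -0.12 to 2.04, Myl9 -1.09 to 1.15, Mylk -0.47 to 0.56, Nexn -0.20 to 0.39, Pdlim3 -0.013 to 1.51, Pdlim7 -0.48 to 0.20 and Ppp1r14a -0.73 to 0.20. The cause of these changes was not tested. Deviations from the group mean correlated at -0.27, -0.28 and -0.051 between same-numbered arrays of the groups, and at -0.064 to 0.30 between differently numbered ones. With so few arrays a group these values cannot decide whether the numbers pair the samples. With the replicate block 0 member probe sets passed and 1 gene had an unadjusted p under 0.05.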
